A study of Mus musculus with 2 samples.

Results

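Complement is a cascade of serum and membrane proteins that marks targets for clearance. The classical pathway starts with C1q and its proteases C1r and C1s, the lectin pathway with collectins, ficolins and the MASP proteases, and the alternative pathway with factors B and D and properdin. All of them lead to the cleavage of C3, the central component, and then to C5 and the membrane attack complex. The liver makes most of the circulating proteins, while tubule cells, fibroblasts and macrophages of the kidney also transcribe complement genes.

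A set of 32 mouse complement genes, made up of components, receptors and regulators, was followed here. They were taken by gene symbol from a table of read counts for 45777 genes, and each of the 32 symbols matched 1 row. The data came from 2 RNA-seq libraries of whole kidneys. The CKO library is from mice with a conditional knockout of Inmt, the indolethylamine N-methyltransferase gene, that is specific to the proximal tubule, and the Control library is from control mice. Both groups ate standard chow and received no treatment. The labels do not give the Cre driver, the alleles, the strain, sex or age, or how many animals each library holds. The CKO library held 38136616 reads and the Control library 33618076.

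With 1 library per group, no difference below has a replicate check and no test across animals was possible. Levels are given as CPM, the read count scaled to a common library size after TMM scaling. Ratios carry 95% counting intervals (exact Clopper-Pearson), which cover counting error only and compare these 2 libraries, not the conditions. A gene was called higher or lower where its log2 ratio of CPM + 0.5 was at or beyond 1, that is 2-fold. Inmt, the targeted gene, stood at 124 CPM in the CKO library against 587 CPM in the Control library, and was 4.73-fold lower (interval 4.59 to 4.88).

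Of the 32 complement genes, 16 were at least 2-fold higher in the CKO library and 0 were at least 2-fold lower. Of all 23481 genes with a read in either library, 7.43% were higher and 1.10% lower by the same limit. At 1 CPM or more in either library were 28 genes, the 16 among them, and their median log2 ratio was 1.16. Over all 15129 genes at that level, 10.3% were at least 2-fold higher and 1.66% at least 2-fold lower, with a median of 0.01. Hc, C6, C3ar1 and C5ar1 reached 1 CPM through the CKO library alone, and Colec11 through the Control library alone. Among the 24 complement genes at 1 CPM or more in the Control library, 12 were higher, beside 6.75% of the 14081 genes at that level.

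The background share depends on abundance. With a mean of 10 to 100 CPM over both libraries, 10 of 16 complement genes were higher, beside 4.81% of 7821 genes. With a mean of 1 to 10 CPM, 5 of 10 were higher, beside 21.4% of 5374 genes. Of the 2 complement genes with a mean of 100 CPM or more, C3 was higher and Cfb was not, beside 1.34% of 1934 genes. The 32 genes together took 0.207% of CKO reads (exact interval 0.206 to 0.209) and 0.0674% of Control reads (0.0666 to 0.0683).

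**Figure D1:**
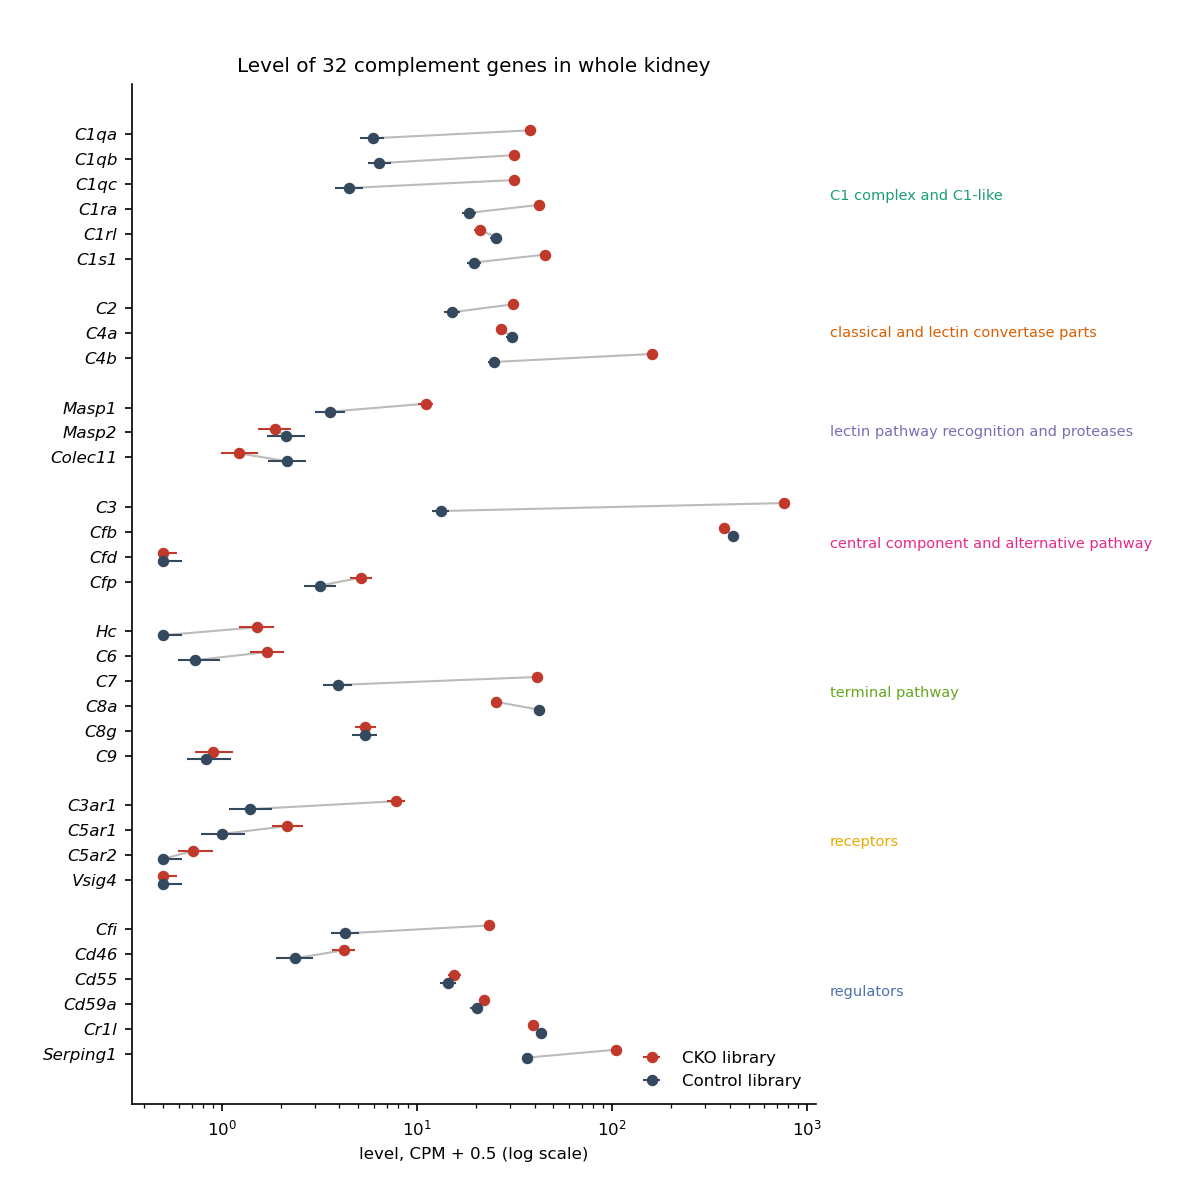
Level of each complement gene in the CKO library (red) and the Control library (dark blue), as CPM + 0.5 on a log axis, grouped by role, with exact Poisson 95% counting intervals. C3 lies farthest apart, at 758 CPM in CKO against 12.7 CPM in Control, while the points of Cfb, Cd55, Cd59a and Cr1l nearly meet.

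The promoters of the 4 genes with the largest CPM differences among those in the RefSeq promoter table are shown because these genes were higher together. They run from 250 bases before to 50 bases after the start that the table uses in GRCm38.p6, which for C1qc and C1s1 is not the outermost base of the gene, and all 4 lie on the minus strand. For C7, the 50 bases after the start were not found near the start of a GENCODE transcript of the gene. For C3, C1qc and C1s1 at least part of them was found there. The table lists 2 promoters for C1s1, of which the first is shown. C3 is at chr17:57228087-57228386, C7 at chr15:5063724-5064023, C1qc at chr4:136892865-136893164 and C1s1 at chr6:124542310-124542609. Capitals mark matches on either strand to any of 4 motifs. These are TTNNGNAA (C/EBP type) and TTCNNNGAA (STAT type), with N for any base, GAAA followed by 2 free bases and GAAA (interferon response type), and GGG followed by 2 free bases and TTTCC (NF-kB type).
C3: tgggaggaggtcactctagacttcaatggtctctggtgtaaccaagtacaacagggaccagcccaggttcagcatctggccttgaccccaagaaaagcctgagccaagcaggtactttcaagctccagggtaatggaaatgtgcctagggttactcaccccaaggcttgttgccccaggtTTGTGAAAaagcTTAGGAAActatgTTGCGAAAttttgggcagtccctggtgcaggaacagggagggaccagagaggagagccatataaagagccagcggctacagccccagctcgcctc
C7: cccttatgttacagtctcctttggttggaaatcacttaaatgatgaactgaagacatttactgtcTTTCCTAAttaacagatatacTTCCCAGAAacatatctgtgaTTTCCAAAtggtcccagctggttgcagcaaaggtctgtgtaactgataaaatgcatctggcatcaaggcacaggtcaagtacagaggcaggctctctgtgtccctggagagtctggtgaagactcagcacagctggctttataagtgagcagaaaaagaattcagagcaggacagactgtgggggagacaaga
C1qc: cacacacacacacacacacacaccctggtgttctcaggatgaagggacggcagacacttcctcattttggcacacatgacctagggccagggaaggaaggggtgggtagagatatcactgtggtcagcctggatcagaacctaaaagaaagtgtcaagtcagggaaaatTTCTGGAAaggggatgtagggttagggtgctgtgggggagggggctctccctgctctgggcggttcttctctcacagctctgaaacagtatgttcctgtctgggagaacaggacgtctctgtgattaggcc
C1s1: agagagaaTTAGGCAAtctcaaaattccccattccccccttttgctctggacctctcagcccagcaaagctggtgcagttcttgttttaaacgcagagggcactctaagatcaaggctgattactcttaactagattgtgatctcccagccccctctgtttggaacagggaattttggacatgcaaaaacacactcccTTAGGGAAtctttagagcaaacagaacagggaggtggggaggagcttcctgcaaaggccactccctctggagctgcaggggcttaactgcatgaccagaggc

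The C3 promoter held 3 TTNNGNAA matches, which begin at positions -70, -58 and -45 counted from that start, and the last of them matches on both strands. C7 held this motif at -185 and -143 and TTCNNNGAA at -164, C1qc held TTNNGNAA at -81, and C1s1 held it at -242 and -52. TTNNGNAA is a loose motif, present in 40.7% of all 32851 promoters in the table. Of the 24 complement genes with a promoter there, 12 held it in any of their promoters. Such counts are per gene, while the shares of all promoters are per promoter. It was in 8 of the 10 higher genes, C3, C7, C1qc and C1s1 among them. Of the 10 other genes at 1 CPM or more it was in 1, C1rl. C5ar2, C9 and Vsig4, below 1 CPM in both libraries, held it as well. Whether the motif goes with the difference was not tested. TTCNNNGAA was in 5 of the 24 (8.30% of all promoters), the interferon response type in 3 (3.44%), and the NF-kB type in 1, C3ar1 (1.63%). A match is a description of these letters and not a binding site.

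The C1 complex genes were higher, and the 3 chains of C1q, its recognition part, went furthest. C1qa stood at 37.3 CPM in the CKO library, from 1588 reads, against 5.41 CPM in the Control library, from 163 reads, and was 6.89-fold higher (5.86 to 8.14). C1qc had 1319 reads in CKO against 120 in Control and was 7.77-fold higher (6.44 to 9.45). C1qb had 1309 reads in CKO against 178 in Control and was 5.20-fold higher (4.44 to 6.12). The 3 genes lie side by side within 18.7 kb on chromosome 4 (GRCm38). The intervals of C1qb and C1qc do not overlap, so the chains differed beyond counting error, although all 3 were more than 4-fold higher.

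C1ra and C1s1, which encode the proteases C1r and C1s, moved almost alike and less than C1q. C1ra had 41.6 CPM in CKO against 17.9 CPM in Control, a ratio of 2.32 (2.11 to 2.56). C1s1 had 44.7 CPM in CKO against 19.1 CPM in Control, a ratio of 2.34 (2.13 to 2.57). Per length, in the authors' FPKM values, C1ra stood at 0.991 of C1s1 in CKO and at 0.993 in Control, while C1qa stood at 2.27 of C1s1 in CKO and at 0.765 in Control. C1rl, a C1r-like protease gene in the same 49.3 kb of chromosome 6, had 20.5 CPM in CKO against 25.0 CPM in Control. Its log2 ratio of -0.28 turned positive with total counts and with the authors' TPM and FPKM values. C1ra and C1s1 have copies, C1rb and C1s2. Of all 100-base windows in the longest GENCODE transcript of C1ra, 34.5% also occur in C1rb, and 7.90% of those of C1s1 occur in C1s2, so part of their reads cannot be placed with certainty.

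C4b, the gene for the C4 of the classical and lectin C3 convertase, and its near copy C4a differed. C4b had 160 CPM in the CKO library, from 6808 reads, against 24.3 CPM in the Control library, from 733 reads, and was 6.57-fold higher (6.08 to 7.10). C4a, the sex-limited protein gene of mice, had 26.3 CPM in CKO against 30.2 CPM in Control. Its log2 ratio of -0.20 turned positive with total counts and with TPM and FPKM values. It stayed within 2-fold under each of 8 alternatives of scaling, unit and pseudocount. Among the 8, the authors' normalized values nearly repeat the main scaling. Per length, C4b stood at 6.05 of C4a in CKO and at 0.804 in Control, in FPKM. Of the 100-base windows of the C4b transcript, 16.5% also occur in C4a, and the counts do not say how such reads were split. Without C4a, C4b, C1ra and C1s1, 13 of 24 complement genes at 1 CPM or more in either library were at least 2-fold higher. The share of all genes at that level was 10.3%.

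C2, the protease of the same convertase, and Cfb, its counterpart in the alternative pathway, lie 87 bases apart on chromosome 17 within 154 kb that also hold C4a and C4b. C2 had 30.6 CPM in CKO against 14.6 CPM in Control, and was 2.10-fold higher (1.88 to 2.35). That interval reaches below 2-fold, and with a pseudocount of 2 CPM its log2 ratio was 0.98. Cfb had 372 CPM in CKO, from 15824 reads, against 415 CPM in Control, from 12492 reads. Its log2 ratio of -0.16 turned positive with both total count scalings and with TPM and FPKM values, where the highest value was 0.28. The 4 neighbours therefore had log2 ratios of 2.69 for C4b, 1.05 for C2, -0.16 for Cfb and -0.20 for C4a.

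C3 was the most changed complement gene. It stood at 758 CPM in the CKO library (exact Poisson interval 750 to 766), from 32276 reads, against 12.7 CPM in the Control library (11.5 to 14.1), from 383 reads. The ratio was 59.6 (53.9 to 66.1), and its log2 ratio of 5.84 ranked 2 from the highest among the 15129 genes. No other complement gene reached a log2 ratio of 4. Without C3, 15 of 27 genes at 1 CPM or more in either library were at least 2-fold higher, beside 10.3% of all genes. Per length, C3 stood at 1.04 of Cfb in CKO and at 0.0157 of Cfb in Control, in FPKM.

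The make-up of the complement transcripts differed between the libraries. Summed over the 32 genes, FPKM came to 598 in the CKO library against 234 in the Control library. Cfb held 23.4% of that sum in CKO and 53.4% in Control, and was the first gene by FPKM in the Control library. C3 held 24.3% in CKO, where it ranked first, and 0.837% in Control, where it ranked 17. Serping1 held 9.40% in CKO and 6.67% in Control, and Cr1l 3.81% in CKO and 8.60% in Control.

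**Figure D2:**
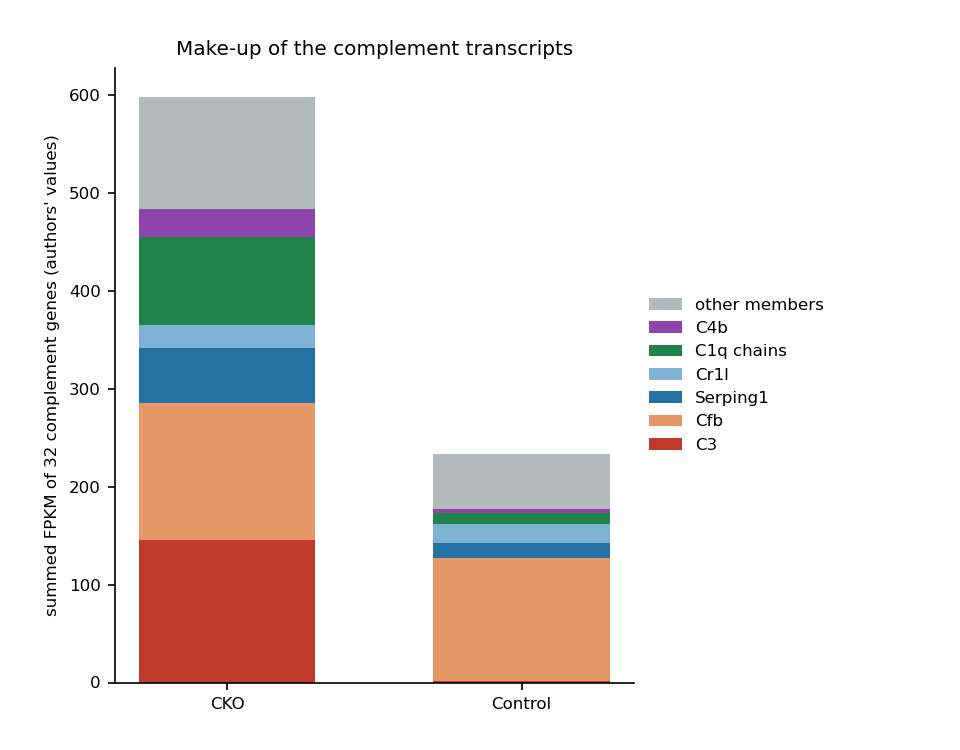
Summed FPKM of the 32 complement genes, as deposited by the authors, in the CKO library (left) and the Control library (right), with the most abundant genes in colour and the rest in grey. C3 is the part that appears in the CKO bar, while the Cfb part is about as tall in both, at 140 FPKM in CKO against 125 FPKM in Control.

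The other alternative pathway genes were low. Cfp, the properdin gene, which stabilises the C3 convertase, had 4.67 CPM in CKO against 2.69 CPM in Control, a ratio of 1.74 (1.34 to 2.28). Its log2 ratio was 0.70, and 1.08 under the highest of the 8 alternatives. Cfd, the gene for factor D, which cleaves factor B and is a known product of fat cells, is listed at 0 reads in both libraries. If each 0 is a true count, this allows up to 0.0705 CPM in CKO and 0.0996 CPM in Control (3 reads). Of the 7 adipocyte markers, Adipoq, Retn, Plin1 and Lep were at 0 reads in both libraries as well. The other 3 had reads, with 2067 for Fabp4 in CKO against 1229 in Control, 17 for Cidec in CKO against 6 in Control, and 2 for Ucp1 in CKO against 0 in Control.

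In the lectin pathway, 1 of 3 genes was higher. Masp1, which encodes a protease of this pathway, had 10.6 CPM in CKO, from 452 reads, against 3.09 CPM in Control, from 93 reads, and was 3.44-fold higher (2.74 to 4.34). Masp1 overlaps the interferon-induced gene Rtp4 by 1022 bases, and Rtp4 had 446 reads in CKO against 96 in Control, almost the same numbers. Whether the counting used strand is not given in the sources used here, so reads within the overlap cannot be assigned to Masp1 or Rtp4 with certainty. Colec11, which encodes the collectin CL-11, had 31 reads in CKO against 50 in Control and was 2.28-fold lower in plain CPM (1.43 to 3.69). On the scale of CPM + 0.5 its log2 ratio was -0.82, within 2-fold. Masp2, the protease gene of MASP-2, had 58 reads in CKO against 49 in Control, and its log2 ratio of -0.19 turned positive with total counts. Masp2 overlaps Tardbp, which had 8250 reads in CKO against 5835 in Control.

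The terminal pathway genes, whose products build the membrane attack complex, did not move together. C7 had 40.6 CPM in the CKO library, from 1727 reads, against 3.42 CPM in the Control library, from 103 reads, and was 11.9-fold higher (9.72 to 14.6), the second of the 32 genes by log2 ratio. C8a, for the alpha chain of C8, had 25.0 CPM in CKO against 41.8 CPM in Control, and was 1.67-fold lower (1.54 to 1.82). C8a was below 0 under each of 8 alternatives, from -0.75 to -0.31. Per length, C7 stood at 2.02 of C8a in CKO and at 0.0948 in Control, in FPKM. C8a overlaps Fyb2, which had 450 reads in CKO against 99 in Control.

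The other terminal genes were near the limit of detection or level. C6, 183704 bases from C7 on chromosome 15, had 51 reads in CKO against 7 in Control, a ratio of 5.15 (2.33 to 13.5). Hc, the mouse C5 gene, had 43 reads in CKO against 0 in Control and was at least 10.1-fold higher against a floor of 3 reads in that library. That bound holds only if the 0 is a true count. Among 1401 genes with 30 to 59 CKO reads, 101 were at 0 in the Control library and 34 had 1 to 3 reads. C9, which forms the pore, had 17 reads in CKO against 10 in Control (ratio 1.20, 0.520 to 2.94). C8g, for the gamma chain of C8, had 4.93 CPM in CKO against 4.88 CPM in Control, a ratio of 1.01 (0.814 to 1.26), and it overlaps Fbxw5, with 2902 reads in CKO against 2412 in Control. With a pseudocount of 2 CPM the log2 ratios of C6 and Hc were below 1, at 0.52 and 0.59.

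Among the anaphylatoxin receptor genes, C3ar1 and C5ar1 reached 1 CPM, both through the CKO library alone. They were higher there, from low levels. C3ar1, the receptor for the C3a fragment on myeloid cells, had 7.28 CPM in CKO, from 310 reads, against 0.897 CPM in Control, from 27 reads, and was 8.12-fold higher (5.47 to 12.5). C5ar1, the C5a receptor, had 71 reads in CKO against 15 in Control and was 3.35-fold higher (1.90 to 6.29). Its log2 ratio was 1.12, and 0.55 with a pseudocount of 2 CPM. C5ar2, the second C5a receptor, had 9 reads in CKO against 0 in Control, at least 2.12-fold higher against the floor of 3 reads if that 0 is a true count. Of 263 genes with 9 reads in CKO, 95 were at 0 in Control. Vsig4, the complement receptor gene of resident macrophages in several mouse tissues, is listed at 0 reads in both libraries.

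Among the regulators, the secreted ones were higher and the main membrane-bound ones were not. Serping1, the inhibitor of C1r and C1s, had 104 CPM in CKO, from 4438 reads, against 36.0 CPM in Control, from 1084 reads, and was 2.90-fold higher (2.71 to 3.10). Cfi, the factor I protease that cleaves C3b and C4b, had 22.9 CPM in CKO against 3.79 CPM in Control, and was 6.06-fold higher (4.99 to 7.42). Relative to C3, however, Cfi stood per length at 0.0745 in CKO and at 0.723 in Control, in FPKM.

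Cd55, Cd59a and Cr1l encode decay-accelerating factor, CD59 and Crry, which protect cell surfaces from C3 convertases or from membrane attack. Cd55 had 15.1 CPM in CKO against 14.0 CPM in Control, a ratio of 1.08 (0.951 to 1.22). Cd59a had 21.6 CPM in CKO against 19.7 CPM in Control, a ratio of 1.10 (0.988 to 1.22). Cr1l had 38.7 CPM in CKO against 42.5 CPM in Control, and its log2 ratio of -0.13 turned positive with both total count scalings and with TPM and FPKM values. All 3 stayed within 1.5-fold under every scaling, unit and pseudocount tried, where the highest log2 ratios were 0.41 for Cd55, 0.57 for Cd59a and 0.29 for Cr1l. Their summed level was 75.4 CPM in CKO against 76.2 CPM in Control. Cd46, a membrane cofactor gene expressed mainly in testis in mice, had 158 reads in CKO against 56 in Control, a log2 ratio of 0.84. It passed 2-fold under 3 of 8 alternatives, at 1.10 with total counts, 1.04 without the mitochondrial and most abundant genes and 1.03 with TPM values. Cd46 overlaps Cr1l by 74 bases.

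**Figure D3:**
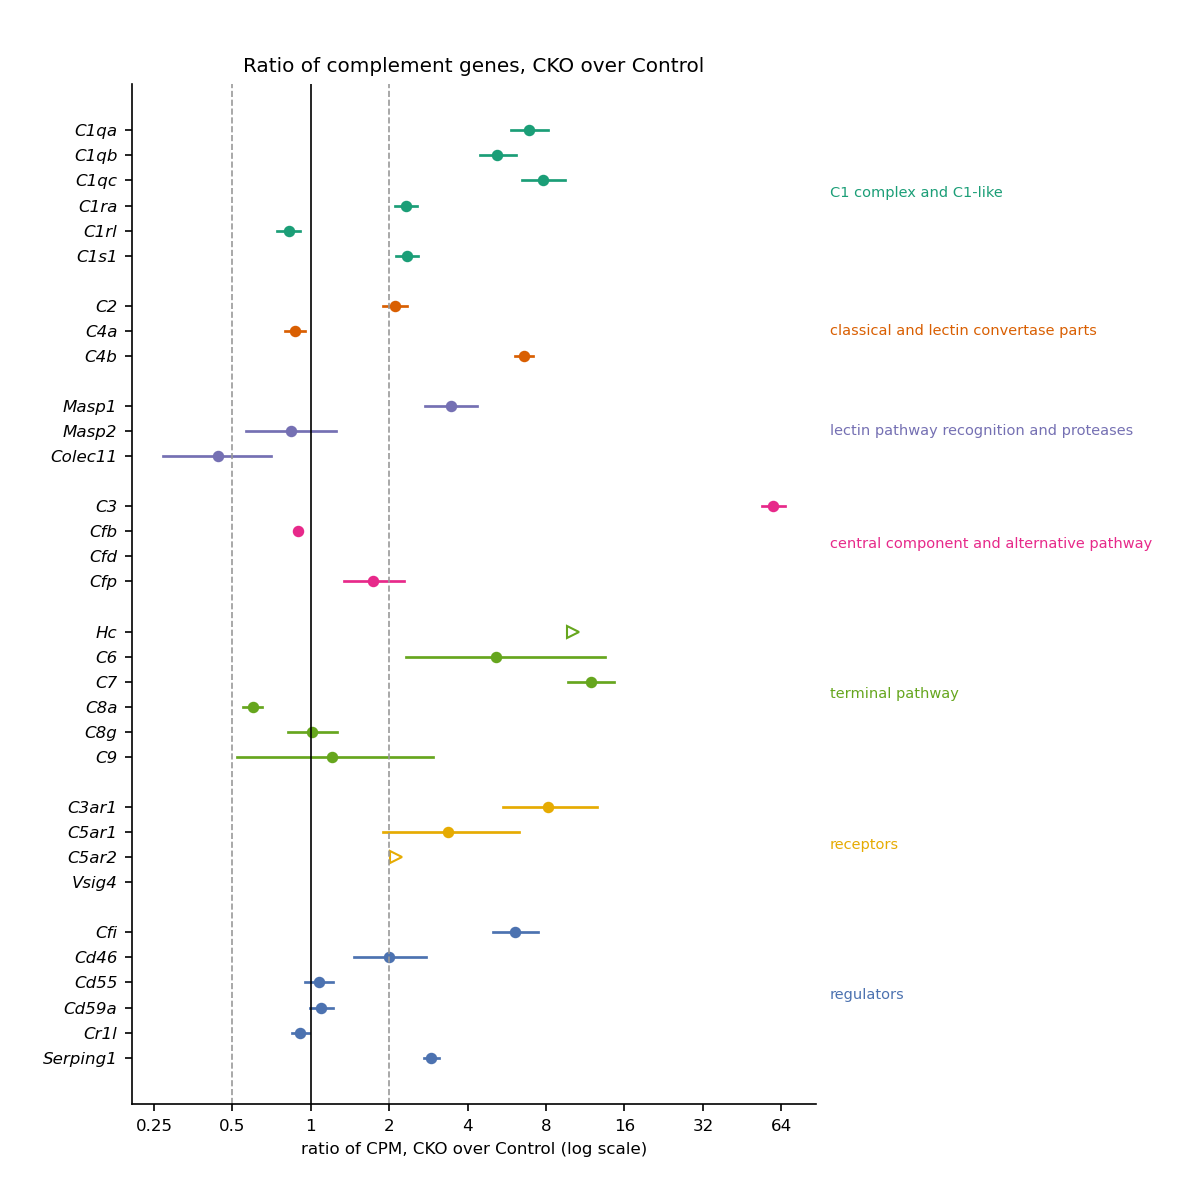
Ratio of CPM, CKO over Control, on a log axis for each complement gene, with 95% counting intervals, grouped by role. Open triangles are lower bounds for genes at 0 reads in Control, genes at 0 in both libraries have no point, and dashed lines mark 2-fold. C3 stands at 59.6 and C7 at 11.9, while Cd55, Cd59a, Cr1l and Cfb lie close to 1.

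Complement genes outside the 32, from a separate list of 30, also stood higher in the CKO library. Of the 17 at 1 CPM or more in either library, 10 were at least 2-fold higher and 0 at least 2-fold lower, beside the 10.3% and 1.66% of all genes, and their median log2 ratio was 1.19. Clu, the gene for clusterin, which binds terminal complexes, had 615 CPM in CKO against 72.3 CPM in Control, and was 8.50-fold higher (8.14 to 8.89). Itgam and Itgax, the alpha chains of complement receptors 3 and 4, had 591 reads in CKO against 39 in Control and 440 reads in CKO against 47 in Control. Their shared beta chain gene Itgb2 had 456 reads in CKO against 83 in Control. Without these 3 receptor chains, 7 of 14 genes were higher.

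C1qbp, which encodes a mitochondrial protein that can bind C1q, had 59.6 CPM in CKO against 77.5 CPM in Control, a log2 ratio of -0.38. Cd93, an endothelial and myeloid surface gene, had 41.6 CPM in CKO against 27.9 CPM in Control. Thbd, the thrombomodulin gene, had 34.7 CPM in CKO against 21.7 CPM in Control. Their log2 ratios of 0.57 and 0.66 were within 2-fold. C8b, Cfhr3, Cd55b, Fcnb, Colec10, Csmd2 and Csmd3 were at 0 reads in both libraries.

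Markers of cell types that transcribe complement genes moved as well. In whole kidney, more cells of a type and more RNA per cell cannot be told apart. Of 14 macrophage markers, 12 were at least 2-fold higher, beside 7.43% of all genes with a read in either library. Csf1r, 1.83-fold higher, and Cd163, with 6 reads in CKO against 5 in Control, were not. Fcgr1, Ms4a7 and Aif1 reached 1 CPM through the CKO library alone. The summed level of the 14 was 633 CPM in CKO against 135 CPM in Control, a ratio of 4.69. Cd74 alone gave 293 CPM of that sum in CKO and 60.0 CPM in Control. The summed level of the 3 C1q chains, which macrophages express, was 99.0 CPM in CKO against 15.3 CPM in Control, a ratio of 6.47. All 14 macrophage markers had reads in the CKO library, and Ms4a7 was at 0 in Control. The part of these markers in the C1q and receptor differences was not tested.

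Of 8 fibroblast markers, 6 were at least 2-fold higher, beside 10.3% of all genes at 1 CPM or more in either library. The receptor genes Pdgfra, 1.79-fold higher, and Pdgfrb, 1.34-fold higher, did not reach 2-fold. The summed level of the 8 was 759 CPM in CKO against 257 CPM in Control, a ratio of 2.95, with no marker at 0. The largest part of that sum was Col3a1 in CKO, at 254 CPM, and Pdgfrb in Control, at 68.7 CPM. The summed level of C1ra and C1s1, which fibroblasts express, had a ratio of 2.33. All 7 injured tubule markers were at least 2-fold higher, beside the same 10.3%. Lcn2, Krt20 and Krt19 reached 1 CPM through the CKO library alone. The summed level of the 7 was 4698 CPM in CKO against 380 CPM in Control, mostly Spp1 with 4196 CPM in CKO against 342 CPM in Control. The part of these markers in the C3, C4b and C7 differences was not tested.

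The other marker lists did not all move the same way. Over all genes at 1 CPM or more in either library, 10.3% were at least 2-fold higher and 1.66% at least 2-fold lower. All 10 proximal tubule markers had reads in both libraries, 4 were at least 2-fold lower, and their sum was 14498 CPM in CKO against 27591 CPM in Control. Of 6 endothelial markers, 0 passed 2-fold, with sums of 445 CPM in CKO and 474 CPM in Control. Of 9 hepatocyte markers, 0 were at least 2-fold higher and 1 at least 2-fold lower, with sums of 38.9 CPM in CKO and 86.2 CPM in Control, and Ahsg and Cps1 were at 0 in both libraries. The lower one, Ttr, had 13.7 CPM in CKO against 49.2 CPM in Control, while Serpina1a had 215 reads in CKO against 77 in Control and Fgb 20 in CKO against 0 in Control. Alb, the albumin gene, had 72 reads in CKO against 63 in Control. Of 9 neutrophil markers, S100a8, Ly6g, Mpo, Camp and Elane were at 0 in both libraries, and the sums were 5.10 CPM in CKO and 1.20 CPM in Control. The 1 neutrophil marker at 1 CPM or more, Csf3r, reached that level through the CKO library alone. It had 182 reads in CKO against 22 in Control and was 5.85-fold higher (3.75 to 9.57). All 7 T and NK cell markers had reads in CKO and Cd3d was at 0 in Control. Their sums were 9.37 CPM in CKO and 1.59 CPM in Control, a ratio of 5.88. The 4 of them at 1 CPM or more, a level reached through the CKO library alone, were all at least 2-fold higher. The adipocyte list summed to 49.0 CPM in CKO and 41.0 CPM in Control, nearly all from Fabp4.

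**Figure D4:**
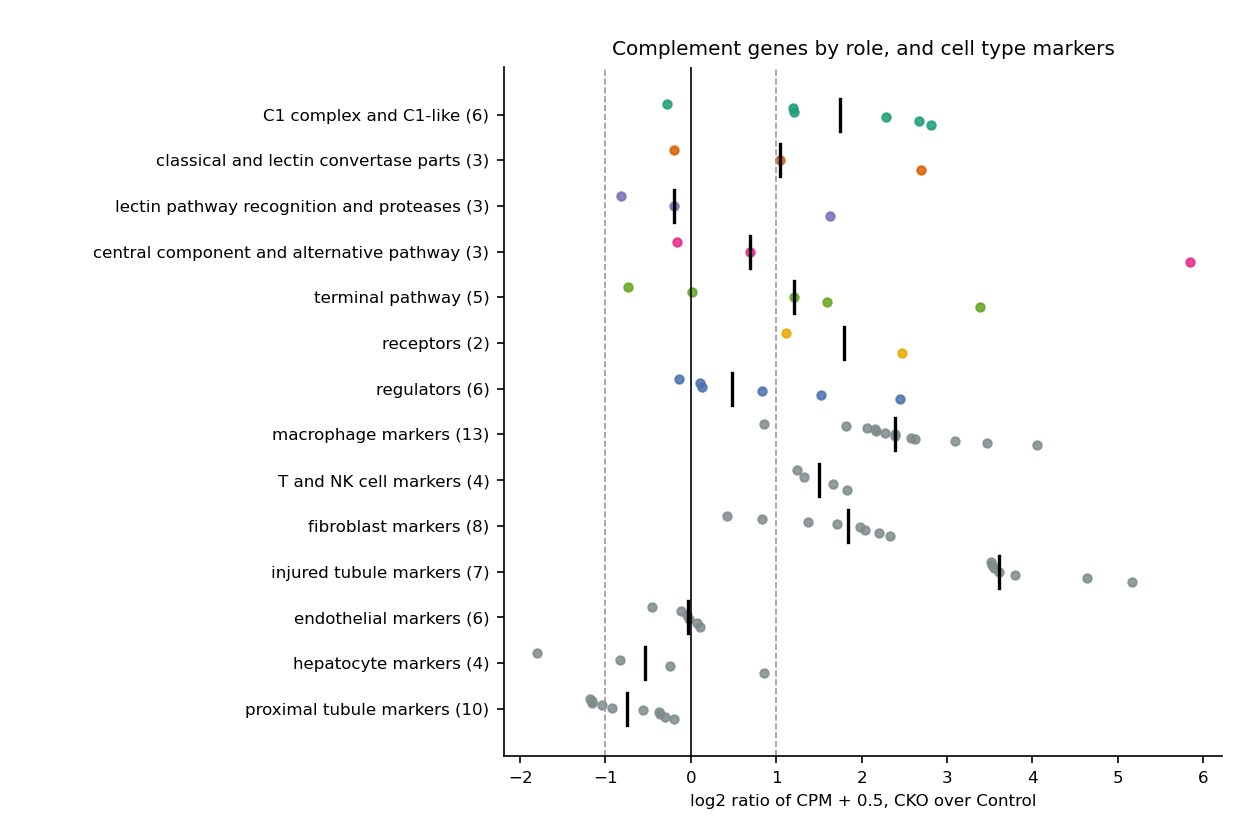
Log2 ratio of CPM + 0.5, CKO over Control, for complement genes by role (colour) and for cell type markers (grey) at 1 CPM or more in either library, with the number of genes in brackets. Black bars are medians, dashed lines mark 2-fold and the solid line is the median of all 15129 genes. The C1 group has its median at 1.74 and the regulators at 0.48, while macrophage markers have theirs at 2.39 and proximal tubule markers at -0.74.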

How the data were processed

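A stranded kit for mRNA was used for both libraries, per the labels' protocols. Tools listed, without roles, in the submitters' processing notes are edgeR, DESeq2, Cufflinks 2.2.1, FastQC, HTSeq and STAR 2.7.3a, with the build mm10. The deposited read counts per gene are not normalized, per the file headers and their whole-number values. The deposited FPKM and TPM values are the authors' and are scaled by length and depth. A second deposited table holds signal values, each the count divided by 1 constant per library (42.6 for CKO, 30.1 for Control).

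TMM scaling (edgeR 4.0.16, R 4.3.3) used all genes with reads and gave effective library sizes, in Mreads, of 42.6 for CKO and 30.1 for Control. These nearly equal the constants of the second deposited table, so its values, used as an alternative, are not an independent check of the scaling. DESeq2 1.42.0 gave other size factors. Ratios were computed in Python 3.11.15 with scipy 1.17.1. Log2 ratios use a pseudocount of 0.5 CPM, which understates low genes. The steps were tested on simulated counts. Every complement gene is reported, in full where it reached 10 CPM in either library (19 genes), and genes of the other lists by that level or by rank. 1 gene of the other complement list above that level is not reported here. The members and lists were chosen with earlier results of these data known. Positions are from RefSeq GRCm38.p6, matched by NCBI gene ID for all 32 genes.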

Additional observations from a re-analysis of the deposited data

How the results depend on the processing

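Of 28 complement genes, 16 were at least 2-fold higher in the main setting, and 14 alternatives were tried. Where the 2-fold limit was kept, the count lay between 12 and 17, and with a 1.5-fold limit it was 18 of 28. The number of genes counted changed too. The value of 12 was of 28 with a pseudocount of 2 CPM, of 19 with a minimum of 10 CPM and of 24 with the minimum in the Control library. No gene called higher changed sign, and 24 of 32 genes kept their side of 2-fold under every scaling, unit and pseudocount tried. Cfd and Vsig4 are among these 24 but could not change, since they were at 0 reads in both libraries. The count at least 2-fold lower was 0, but 1 with a pseudocount of 0.1 CPM (Colec11) and 2 with a 1.5-fold limit (C8a and Colec11). The median log2 ratio of 1.16 was 1.37 with total counts, 1.38 with total counts without mitochondrial and the 50 most abundant genes, 1.45 with FPKM, 0.58 with a pseudocount of 2 CPM and 0.94 with the minimum in the Control library. For the separate list of 30 genes, 10 higher became 5 of 8 with a minimum of 10 CPM, because fewer genes were counted. The log2 ratio of Inmt, -2.24, was -1.92 with total counts, -2.04 without the mitochondrial and most abundant genes, -1.82 with TPM and -1.92 with FPKM. The median of all genes moved from 0.01 to 0.32, 0.21, 0.40 and 0.26 under these 4 scales. Over all genes, 1552 higher became 2391 with total counts, 2613 with TPM and 825 with a pseudocount of 2 CPM. No paired analysis was possible because each group has 1 library. Depth limits Hc, C5ar2, C9, Cfd and Vsig4, which had at most 43 reads in a library.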

Other observations

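The deposited units disagreed for Masp2 alone among the complement genes with reads in both libraries, by a limit of 1.5-fold on the ratio of read count to FPKM between the libraries. For Masp2 that ratio, after division by the library totals, was 2.31 times as large in CKO as in Control. Its FPKM was 0.449 in CKO against 0.997 in Control, while its reads were 58 in CKO against 49 in Control.

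Low read numbers had an uneven spread in both libraries. In the CKO library 618 genes had 1 read, 871 had 2 and 735 had 3, while 23078 were at 0. In the Control library 556 genes had 1 read, 773 had 2 and 631 had 3, while 25445 were at 0.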
